A study of Mus musculus with 96 samples.

Results

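The phase II conjugation enzymes of the liver were followed through pregnancy, fetal life and adulthood in mice. The members were the genes whose symbols begin with Gsta, Gstk, Gstm, Gsto, Gstp, Gstt or Gstz (glutathione transferases), with Ugt1, Ugt2 or Ugt3 (glucuronide transferases and their relatives), or with Sult1 to Sult7 (sulfotransferases), without pseudogene symbols, joined symbols and symbols on several table entries. This gave 60 of 24066 genes, namely 21 glutathione, 20 glucuronide and 19 sulfate members. The rule itself went by names and used no measured value, but it was written with earlier results of these data known.

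Conjugation makes drugs, hormones, bile pigments and the products of oxidation water-soluble by joining them to a small polar group. Glutathione transferases join glutathione to reactive electrophiles, UDP-glucuronosyltransferases join glucuronic acid to bilirubin, steroids and drugs, and sulfotransferases move sulfate from the donor PAPS to steroids, bile acids and phenols. Hepatocytes hold most of this capacity in the body, and in mice several members are known to differ between the sexes and to mature after birth.

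Poly(A) RNA was sequenced from livers of C57BL/6J mice in 96 libraries, 12 in each of 8 arms, with 3 at each of ZT0, ZT6, ZT12 and ZT18 (zeitgeber time, hours after lights on). Control mothers lived under a fixed cycle of 12 h light and 12 h dark, and shifted mothers had the lights advanced by 8 h every 5 days, only in pregnancy; livers of the mothers and of their fetuses made 4 arms. The other 4 arms were adult male offspring of either kind of mother, given low-fat or high-fat food for 12 weeks starting at the age of 4 weeks. The sources used here give neither the gestational day, the sex and pooling of fetuses, nor whether the 3 libraries of a group came from separate animals, so p-values measure the spread between libraries, which may be technical. Values are FPKM (fragments per length of transcript and per size of library), divided by a scaling factor for each library. Changes are log2 differences of FPKM + 1, which understate the change of weakly expressed genes, and an adjusted p under 0.05 over all genes tested counts as passing.

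The FPKM of a maternal library summed to between 558630 and 628997, those of a fetal library to between 728680 and 1036288, and those of an offspring library to between 546763 and 833499. No counts were used, so the depth of the libraries is unknown. Of the offspring libraries, 5 had a median correlation under 0.95 with the other libraries of their arm, and the lowest was replicate 1 of the high-fat control arm at ZT0 (0.887). In that library 37.2% of the 43 members measured in offspring lay outside the range of the other 11 libraries, against 63.6% of all genes tested, and 38 genes with at least 10 FPKM in each of the others were listed at 0. Replicate 2 of the low-fat control arm at ZT0 had 58.1% of the members outside the range of the others, against 34.4% of all genes tested. It held Gsta1 at 159 FPKM, Gsta2 at 106 and Sult2a8 at 30.2. The 8 arms were deposited as 8 tables, so effects of the table and of the arm cannot be told apart.

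All 3 families were expressed at each stage, at levels that differed widely within a family. At least 1 FPKM in at least 3 libraries was reached by 51 of the 60 members in mothers (19 glutathione, 17 glucuronide and 15 sulfate), by 36 in fetuses (17, 11 and 8) and by 43 in offspring (19, 16 and 8). The 9 members that reached this level at no stage were Gsto2, Gstt4, Sult1c1, Sult2a6, Sult2b1, Sult6b1, Ugt1a7c, Ugt2a1 and Ugt2a2, and Sult1c1 was listed at 0 in all 96 libraries. Glutathione transferase RNA was the largest of the 3 sums in every arm, with a median of 3823 FPKM per library in control mothers (lowest 2359, highest 4516), against 1352 for glucuronide members (1160 to 1534) and 1699 for sulfate members (1215 to 2095). In control fetuses the medians were 1478 FPKM for glutathione (1187 to 1783), 164 for glucuronide (136 to 240) and 142 for sulfate members (64.7 to 221). These sums were scaled within each stage, and FPKM are per transcript length, which allows levels of different genes to be set side by side.

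**Figure D1:**
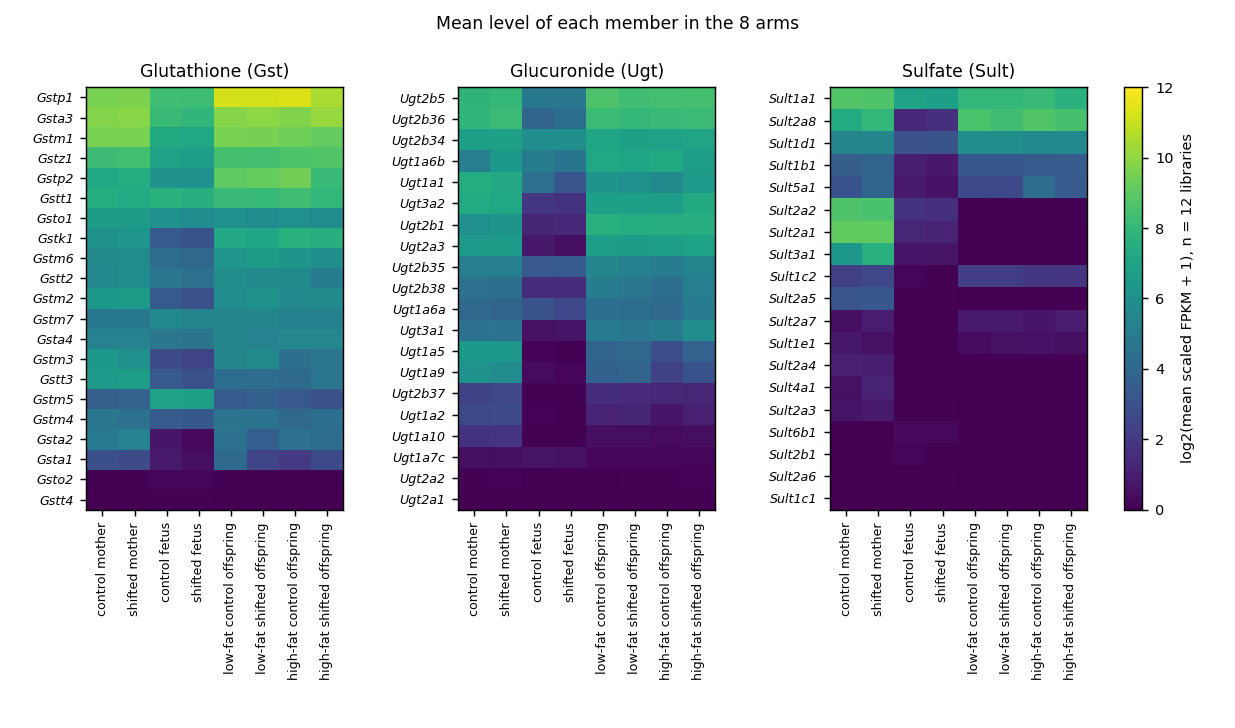
Level of each measured member in the 8 arms, as the log2 of the mean FPKM + 1 over the 12 libraries of an arm (colour scale, scaled within each stage), grouped by family. The sulfotransferases Sult2a1, Sult2a2 and Sult3a1 stand out in mothers and are near 0 in all 4 offspring arms, while Gstp1 is the highest member in the offspring.

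Among glutathione transferases, the alpha-class enzyme Gsta3 led in mothers with 908 ± 245 FPKM (SD, n = 24 libraries of both schedules), followed by the pi-class Gstp1 with 781 ± 206 and the mu-class Gstm1 with 760 ± 190. Gstz1, which also serves tyrosine breakdown as maleylacetoacetate isomerase, was at 313 ± 34.2 FPKM. In fetuses Gstp1 led with 313 ± 57.7 FPKM (n = 24), ahead of Gsta3 with 261 ± 79.7 and the theta-class Gstt1 with 195 ± 49.2. The SDs of Gstp1 and Gsta3 overlap in both stages, so their order there is not firm. In the male offspring Gstp1 reached 2201 ± 933 FPKM (n = 48), above Gsta3 with 971 ± 258, Gstm1 with 680 ± 185 and Gstp2 with 510 ± 254.

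The leading glucuronide members of mothers were Ugt2b36 (260 ± 47.3 FPKM), Ugt2b5 (237 ± 44.6) and Ugt1a1 (162 ± 41.4), the enzyme that conjugates bilirubin. Ugt2b34 led in fetuses with 60.2 ± 8.06 FPKM, and its SD did not reach that of the next, Ugt1a6b with 29.0 ± 16.3. In offspring Ugt2b5 was at 352 ± 76.8 FPKM, Ugt2b36 at 276 ± 49.0 and Ugt2b1 at 180 ± 67.8.

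The leading sulfotransferases were not the same in the pregnant females and the male offspring. In mothers the hydroxysteroid and bile acid sulfotransferases led, with Sult2a1 at 542 ± 180 FPKM (n = 24), Sult2a2 at 389 ± 112 and Sult2a8 at 203 ± 90.8, beside the phenol sulfotransferase Sult1a1 at 420 ± 74.7. In the 48 male offspring Sult2a1 did not exceed 0.178 FPKM and Sult2a2 did not exceed 0.200. Sult3a1, at 22.7 to 178 FPKM in control mothers, did not exceed 0.0951 in any male. Sult2a8, of the same subfamily, was at 370 ± 105 FPKM in the males, the highest sulfate member there. Sex, pregnancy and age all differ between mothers and offspring and cannot be told apart, so these values stand side by side without a test.

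Other members also stood at different levels in mothers and male offspring, side by side and untested. Gstp1 was at 416, 745 and 1036 FPKM in the lowest, median and highest library of control mothers, and at 1132, 2310 and 4074 in low-fat offspring of control mothers. Gstp2 was at 75.0, 136 and 193 FPKM in the former and at 280, 504 and 788 in the latter. Mothers and offspring were scaled separately, so whether such ranges overlap can depend on the scaling, above all for Gstp1. The share of all genes without overlap between these arms was not counted. Gstt3, a theta-class transferase, stood the other way, with 85.7 ± 26.6 FPKM in control mothers and 19.2 ± 7.77 in these offspring (SD, n = 12 each).

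**Figure D2:**
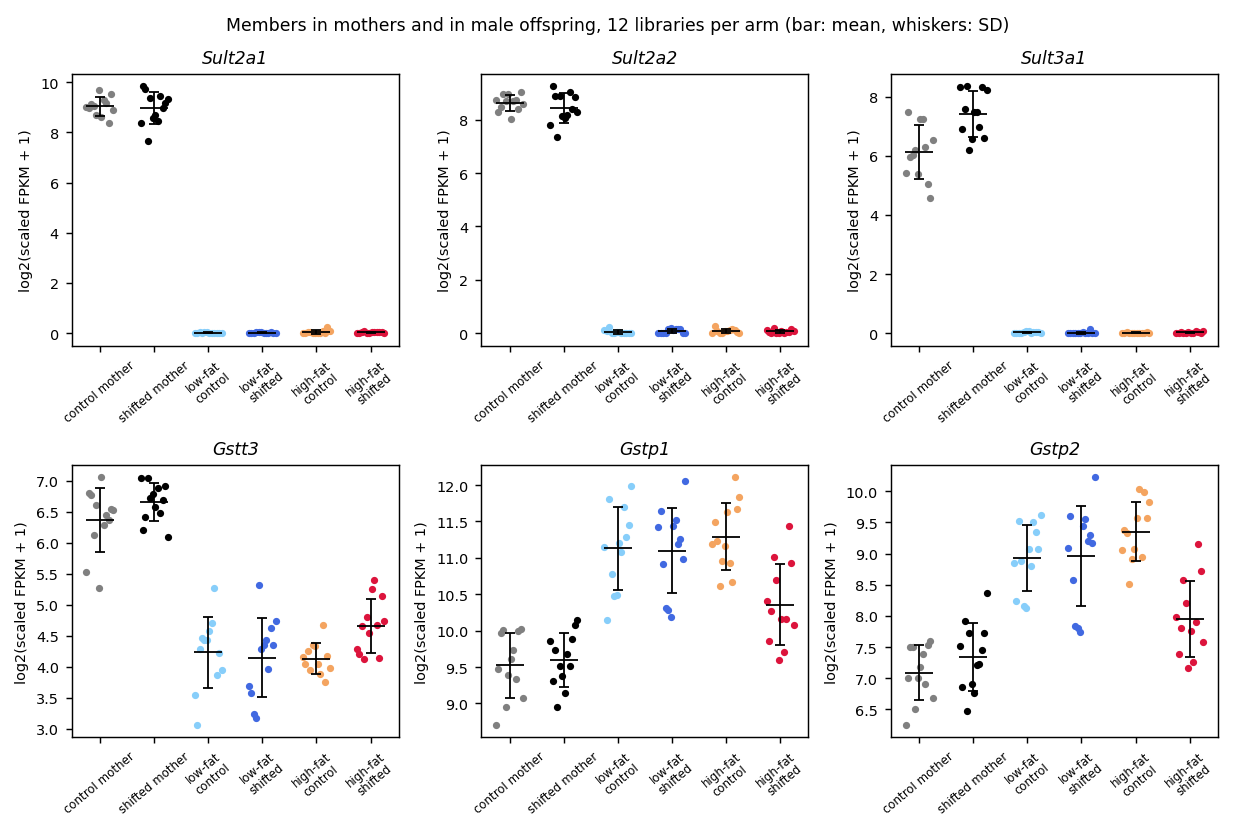
Level of 6 members in the 2 maternal and 4 offspring arms on a log2(FPKM + 1) scale, with 1 point per library, a bar at the mean and whiskers of 1 SD (12 libraries per arm). Sult2a1, Sult2a2 and Sult3a1 lie near 0 in every offspring library, and Gstp1 and Gstp2 have lower means in mothers than in the low-fat offspring, with mothers and offspring scaled separately.

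Fetal liver was compared with maternal liver for the RNA levels of the conjugation enzymes. Stage, pregnancy and table differ between these groups, and sex may differ too, so their effects cannot be told apart. Fetal levels were lower for nearly all members tested: of the 51 members tested on each schedule, 49 were lower and 1 was higher in fetuses, where 84.9% of all genes tested passed on the control schedule (43% lower and 41.8% higher) and 85.4% passed on the shifted schedule (43.1% and 42.3%). Only 36 members reached 1 FPKM in at least 3 fetal libraries with factors within the fetal stage. The other members tested entered through their maternal level alone, so the filter itself favoured a lower fetal level among them. The median difference of the members was -2.55 on the log2 scale under the control schedule and -2.88 under the shifted one, against -0.01 and 0 over all genes tested. All 17 glucuronide members were lower, with medians of -3.76 and -3.98, as were all 15 sulfate members, with -2.66 and -3.16, and 17 of 19 glutathione members, with -2.07 and -2.44. Of these families, 11 glucuronide, 8 sulfate and 17 glutathione members reached the filter level in fetuses. The counts and medians also hold the members that entered through their maternal level alone. The families were not compared by a test, and adding 1 to FPKM shrinks the differences of weak members. In bulk tissue, fewer cells of a type and less RNA per cell cannot be told apart. Mothers and fetuses were scaled together for this comparison. With values as deposited the median of all genes moved to 0.54 and 0.64 and that of the members to -2.13 and -2.29, with 49 and 50 members passing.

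Sult2a1 (chromosome 7, 13796246 to 13837409, minus strand of mm10) showed the largest difference under the control schedule on the log2(FPKM + 1) scale. Control mothers had 439 FPKM in the lowest, 700 in the median and 1078 in the highest library, and control fetuses had 0.266, 0.842 and 2.83. The groups lay far apart, with a difference of -8.44 (SE 0.18, limma adjusted p = 2.36e-31). Its neighbour in the subfamily, Sult2a2, was at 349, 561 and 685 FPKM in control mothers and at 0.678, 1.56 and 5.56 in their fetuses (-7.65). Of the 50-base stretches of the Sult2a2 transcript 62.1% occur in other members (41.3% in Sult2a1), so reads can be exchanged between them. Sult3a1, an amine sulfotransferase, differed by -6.03 under the control schedule and by -7.47 under the shifted one. In the adult male offspring, scaled apart, Sult2a1 averaged 0.0161 FPKM, Sult2a2 0.0474 and Sult3a1 0.0119. Low levels of these sulfotransferases were thus not particular to fetuses.

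Of the glucuronide members, Ugt1a5 (-6.58), Ugt2a3 (-6.26), Ugt1a9 (-6.24) and Ugt3a2, a UDP-glycosyltransferase that uses sugars other than glucuronate (-6.11), showed the largest differences on this scale under the control schedule. Among them, Ugt1a5 and Ugt1a9 entered the test through their maternal level alone. As a ratio of mean FPKM, Ugt1a5 stood further apart than Sult2a1, with 111 FPKM in control mothers and 0.0778 in control fetuses, against 713 and 1.09. Of the 50-base stretches of the Ugt1a5 transcript 64.0% occur in other members, so its level depends on how reads were divided. Ugt1a9 ranged from 60.6 to 146 FPKM in control mothers and from 0.0762 to 0.530 in control fetuses. Ugt1a1 ranged from 169 to 290 FPKM in control mothers, while control fetuses ran from 0.125 to 57.1 (-5.13, SE 0.62). The fetal libraries were uneven for this gene: with factors within the fetal stage, 5 of 12 control and 3 of 12 shifted fetal libraries had more than 10 FPKM, and the lowest had 0.164 and 0.146. The smallest glucuronide difference belonged to Ugt1a6b, at 23.4 to 74.8 FPKM in control mothers and 11.5 to 50.5 in control fetuses (-0.89, limma adjusted p = 0.0358).

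Gstm5, a mu-class transferase (chromosome 3, 107895821 to 107898686, plus strand), was the single member that passed with a higher fetal level under the joint scaling. It was at 9.47, 15.3 and 20.2 FPKM in the lowest, median and highest library of control mothers and at 65.5, 87.1 and 109 in control fetuses. The ranges did not overlap, and the difference was +2.46 (limma adjusted p = 1.32e-24), with +2.26 under the shifted schedule. Gstm7 was the single tested member that did not pass on either schedule, at 37.3 ± 7.54 FPKM in control mothers and 36.1 ± 6.43 in control fetuses (SD, n = 12 each; limma adjusted p = 0.751). With factors within each stage, Gstm7 was at 28.0 ± 5.79 FPKM in mothers and 44.8 ± 9.26 in fetuses (SD, n = 24 each). Gstt1 was then at 165 ± 35.1 and 195 ± 49.2 FPKM. The direction of Gstm7 and Gstt1 thus depends on the scaling. Of the abundant members, Gstp1 went from 1010 ± 290 FPKM in control mothers to 240 ± 47.7 in control fetuses, and Gstm1 from 1001 ± 255 to 117 ± 13.9.

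**Figure D3:**
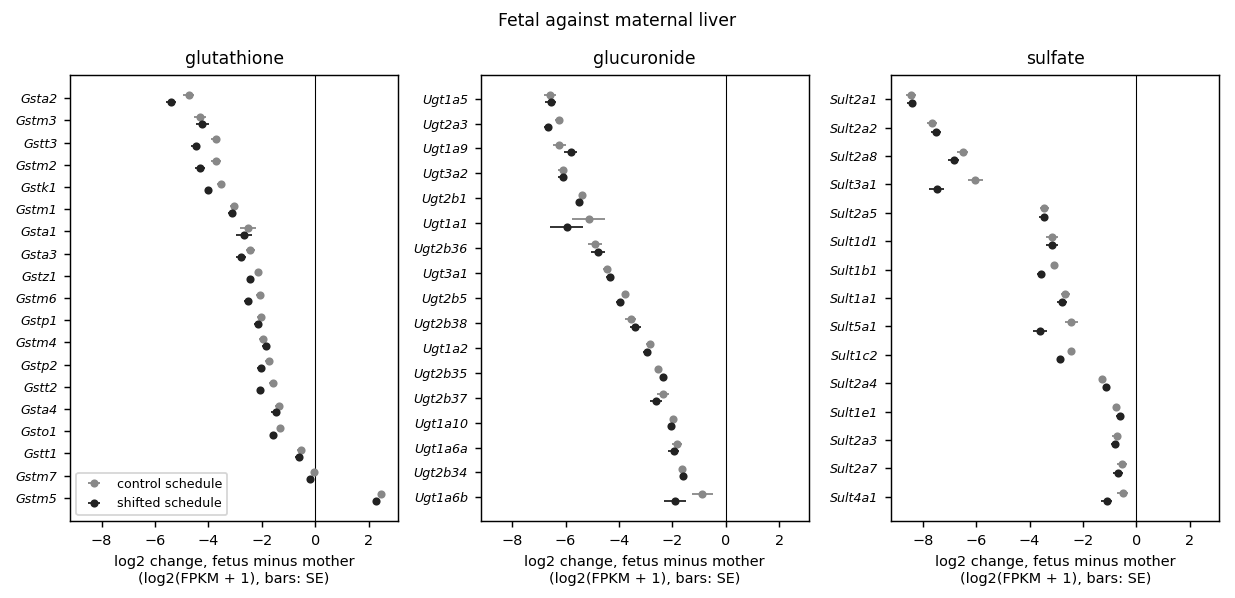
Fetal minus maternal log2 difference with its standard error for the members tested, by family, under the control and the shifted schedule (12 libraries per arm). Gstm5 is the one point well above 0, and Sult2a1 is the lowest under the control schedule at -8.44.

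Marker genes of liver cells moved in the same comparison. All 5 hepatocyte markers were lower in fetuses, with sums of 136240 to 198811 FPKM in control mothers and 17739 to 60945 in control fetuses, all 3 hepatoblast markers were higher (0.434 to 7.62 against 11004 to 17764), and all 3 erythroid markers measured were higher (6.40 to 19.6 against 541 to 1112). None of these markers was at 0 in a whole arm, and their part in the result was not tested. Genes listed for cofactor supply and removal were also mostly lower, with 6 of 6 genes of the glucuronide list, 7 of 9 for sulfate donor supply and removal (2 higher) and 4 of 7 for glutathione supply and turnover (2 higher) under the control schedule. Of all genes tested, 43% were lower and 41.8% higher there.

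Whether the shifted schedule changed the mothers' own enzymes was asked next. Of 51 members, 1 rose and none fell, where 7.91% of all genes tested passed (3.49% higher and 4.42% lower). That member was Sult3a1 (chromosome 10, 33857721 to 33879532, plus strand). Control mothers had 41.7, 178 and 61.1 FPKM at ZT0, 64.6, 72.8 and 40.7 at ZT6, 152, 153 and 76.9 at ZT12, and 32.3, 22.7 and 92.0 at ZT18. Shifted mothers had 324, 121 and 189 FPKM at ZT0, 330, 72.0 and 94.0 at ZT6, 177, 178 and 125 at ZT12, and 321, 95.7 and 302 at ZT18. The groups overlapped, yet 12 of 12 shifted libraries were above the mean log2 level of the control libraries taken at the same time. The fitted rise was 1.30 (SE 0.31, limma adjusted p = 0.0185), or 2.47-fold.

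The members next in order of p did not pass. Sult1c2 was at 3.78 ± 0.949 FPKM in control and 5.08 ± 1.14 in shifted mothers (SD, n = 12 each; limma adjusted p = 0.0581). Sult5a1 was at 7.10 ± 4.82 and 13.5 ± 7.75 (limma adjusted p = 0.0705), and Sult1b1, which sulfates thyroid hormones and small phenols, at 10.7 ± 3.67 and 13.7 ± 2.11 (limma adjusted p = 0.0755). At an unadjusted p under 0.05 stood 7 of the 51 members, against 2890 of all 10351 genes tested. Ugt1a6b was uneven within the shifted arm. Of the 12 shifted mothers' libraries, 4 held more than 100 FPKM, 1 at each time, up to 316 FPKM, and the other 8 lay between 14.2 and 44.8 FPKM, within or near the control range of 17.6 to 56.1.

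Of the marker lists, 4 of 5 endothelial genes fell in shifted mothers (summed level 25.8 to 53.4 FPKM, against 34.9 to 52.0 in control mothers), and none of the 5 hepatocyte markers passed. The part of the endothelial markers in the Sult3a1 result was not tested. Among other conjugation enzymes, 3 of 16 passed, with the microsomal transferase Mgst1 (0.41) and the histamine methyltransferase Hnmt (0.55) higher and the microsomal epoxide hydrolase Ephx1 lower (-0.50).

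In fetuses no member passed by limma (0 of 36, against 3.78% of all genes tested, 2.31% higher and 1.47% lower). At an unadjusted p under 0.05 stood 9 members, against 2552 of all 11985 genes tested. Gstt3 was at 9.56 ± 1.42 FPKM in control and 6.86 ± 2.41 in shifted fetuses (SD, n = 12 each; limma adjusted p = 0.0722), and Gsto1, an omega-class transferase that reduces rather than conjugates, was at 67.1 ± 10.4 and 55.7 ± 7.83 (limma adjusted p = 0.0737). The bile acid and steroid sulfotransferase Sult2a8 stood at 1.55 ± 0.477 and 2.19 ± 0.823 FPKM (limma adjusted p = 0.125). Over all genes, the fetal difference was related to transcript GC content (Spearman rho -0.37) and length (0.33), as a description across genes that share the same libraries.

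The main question for the offspring was whether the mother's light schedule in pregnancy was still visible in the adult liver. On the low-fat diet it was not detected in this group: by limma 0 of 43 members passed, against 0.00922% of all genes tested. At an unadjusted p under 0.05 stood 6 members, against 806 of all 10849 genes tested. Ugt2b5 came first, at 396 ± 81.7 FPKM in offspring of control and 320 ± 108 in offspring of shifted mothers (SD, n = 12 each; limma adjusted p = 0.467), followed by Ugt2b35 (-0.33, adjusted p = 0.614) and Ugt2b36 (-0.24, adjusted p = 0.617).

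On the high-fat diet 19 of 43 members differed between offspring of shifted and of control mothers, 12 higher and 7 lower. Of all genes tested 48.2% passed (26.3% higher and 21.9% lower), so the members' share was near that of all genes. Of 16 glucuronide members 9 rose and 1 fell, of 19 glutathione members 3 rose and 4 fell, and of 8 sulfate members 2 fell and none rose. The median change was 0.40 for glucuronide, -0.06 for glutathione and -0.01 for sulfate members, against 0.01 over all genes tested, and no test compared the families. The split between higher and lower members depends on the scaling: with values as deposited, the median of all genes moved to 0.21 and 19 of 23 passing members were higher, and with upper quartile scaling 11 of 19 were higher. The 15 members of smallest p kept their direction under every scaling tried.

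The pi-class pair showed the largest fall. Gstp1 (chromosome 19, 4035407 to 4037985) and Gstp2 (chromosome 19, 4040285 to 4046023) lie side by side on the minus strand of mm10, and 62.3% of the 50-base stretches of the Gstp1 transcript also occur in other members, so that reads of the pair can be exchanged in the authors' quantification. Because the pair moved together, the stretches around their start sites are shown, from 250 bases before to 50 bases after the start (RefSeq, GRCm38.p6), with runs of at least 20 bases shared by both in capitals. The 4 shared runs cover 120 of 300 bases (40%) in each, and the longest has 43 bases.

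Gstp1, chr19:4037863-4038162, minus strand: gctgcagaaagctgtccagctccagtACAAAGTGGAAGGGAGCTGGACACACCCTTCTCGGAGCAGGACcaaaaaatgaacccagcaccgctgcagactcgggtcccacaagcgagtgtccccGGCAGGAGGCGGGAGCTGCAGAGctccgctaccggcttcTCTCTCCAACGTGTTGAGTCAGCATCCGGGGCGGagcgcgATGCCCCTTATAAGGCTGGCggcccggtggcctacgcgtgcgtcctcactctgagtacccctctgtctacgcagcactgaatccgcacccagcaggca
Gstp2, chr19:4042172-4042471, minus strand: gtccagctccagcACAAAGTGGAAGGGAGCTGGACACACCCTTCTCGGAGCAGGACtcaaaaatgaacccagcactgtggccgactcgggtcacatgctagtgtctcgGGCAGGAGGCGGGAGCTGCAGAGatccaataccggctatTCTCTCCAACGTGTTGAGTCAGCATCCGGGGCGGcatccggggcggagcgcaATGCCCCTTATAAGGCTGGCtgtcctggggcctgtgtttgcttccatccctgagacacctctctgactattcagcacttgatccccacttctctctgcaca

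The antioxidant response element core TGACNNNGC, searched on both strands, was in 12.4% of 32851 promoters of this length and in 3 of the 63 promoters found for 52 members (Gsta3, Gstm5 and Gstm7). The core GCGTG bound by the aryl hydrocarbon receptor was in 32.4% of all promoters and in 11 of the 63. Neither the Gstp1 nor the Gstp2 window matched TGACNNNGC. Both hold the letters TGAGTCAGC in a shared run, and these differ from that core in a single base. Other forms of the element were not searched. The match of letters describes these windows and shows no binding.

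Gstp2 was at 364, 654 and 1054 FPKM in the lowest, median and highest library of high-fat offspring of control mothers, and at 143, 230 and 571 in those of shifted mothers. All 12 shifted libraries lay below the control mean of their time, although the ranges overlapped, and the change was -1.39 (SE 0.18, limma adjusted p = 1.69e-07), or 2.63-fold lower. Gstp1 was at 1569, 2374 and 4413 FPKM in the control and at 771, 1189 and 2763 in the shifted arm. Of its 12 shifted libraries 11 lay below the control mean of their time (-0.93, limma adjusted p = 3.89e-05). Summed over the pair, which an exchange of reads within it does not alter, the levels were 3315 ± 1026 FPKM in the control and 1681 ± 719 in the shifted arm (SD, n = 12 each). The low-fat arms had sums of 2920 ± 1088 FPKM (control) and 2927 ± 1187 (shifted).

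The other glutathione members that fell were the theta-class Gstt2 (chromosome 10, 75831114 to 75837424, minus strand) and Gstt1. Gstt2 was at 25.5, 44.1 and 88.5 FPKM in the lowest, median and highest control library and at 11.5, 33.6 and 49.5 in the shifted arm, with overlap (-0.66, limma adjusted p = 0.00194). Gstt1 changed by -0.34 (limma adjusted p = 0.0182). Gstt3 (0.53), the abundant Gsta3 (0.41) and Gstm4 (0.39) rose, with limma adjusted p-values of 0.00697, 0.0131 and 0.0380. Gsta3 was at 478, 864 and 1122 FPKM in the control and 793, 1083 and 1521 in the shifted arm, and 12 of 12 shifted libraries were above the control mean of their time.

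Among the glucuronide members that rose were Ugt3a1 and Ugt3a2, neighbours on chromosome 15 (9276888 to 9315032 and 9335550 to 9370955, plus strand). Ugt3a1, a UDP-glycosyltransferase that uses N-acetylglucosamine, was at 14.3, 31.1 and 43.6 FPKM in the lowest, median and highest library of the control arm and at 47.3, 58.2 and 69.6 in the shifted arm. Every shifted library lay above every control library (0.92, SE 0.15, limma adjusted p = 4.95e-06). Ugt3a2 was at 35.5, 109 and 126 FPKM against 139, 157 and 179, also without overlap (0.66, limma adjusted p = 0.000108). Of the 50-base stretches of the Ugt3a1 transcript 8.9% occur in other members. For Ugt2b38 the share is 37.4%, with 34.1% in Ugt2b5, so how reads were divided between Ugt2b38 and Ugt2b5 is uncertain. Ugt2b38 (chromosome 5, 87409942 to 87424203, minus strand) was at 3.09, 23.4 and 29.9 FPKM against 24.1, 35.2 and 43.3 (1.03, limma adjusted p = 0.000374), and Ugt2b35 rose by 0.42 (limma adjusted p = 0.0114, and 0.0694 with GC and length trends removed).

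The Ugt1a genes of chromosome 1 share their last exons and differ in the first, and within this locus the members went in different directions. Ugt1a6a rose from 3.19, 16.9 and 21.3 FPKM in the lowest, median and highest control library to 23.3, 30.3 and 37.5 in the shifted arm, without overlap (0.98, limma adjusted p = 0.000106). Ugt1a6b fell from 124, 148 and 224 FPKM to 77.8, 99.8 and 135, with all 12 shifted libraries below the control mean of their time (-0.61, limma adjusted p = 1.69e-05). Of the 50-base stretches of Ugt1a6a 100% occur in other members, and of those of Ugt1a6b 80.7%, so how reads were divided between these genes is uncertain. Their sum was 173 ± 25.7 FPKM in the control and 133 ± 20.2 in the shifted arm (SD, n = 12 each). Ugt1a5 (0.99), Ugt1a9 (0.87), Ugt1a1 (0.81) and Ugt1a2 (0.37) rose, with limma adjusted p-values between 0.00492 and 0.0102. The sum of 8 Ugt1a genes was 238 ± 31.3 FPKM in the control and 241 ± 43.9 in the shifted arm.

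Both sulfate members that passed were lower. Sult1a1, the main phenol sulfotransferase, was at 207, 243 and 387 FPKM in the lowest, median and highest library of the control arm and at 141, 199 and 305 in the shifted arm (-0.38, limma adjusted p = 0.00416, but 0.352 with values as deposited). Sult5a1 was at 4.94, 18.2 and 37.8 FPKM against 3.47, 9.51 and 21.3 (-0.75, limma adjusted p = 0.0132). The ranges of both overlapped.

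**Figure D4:**
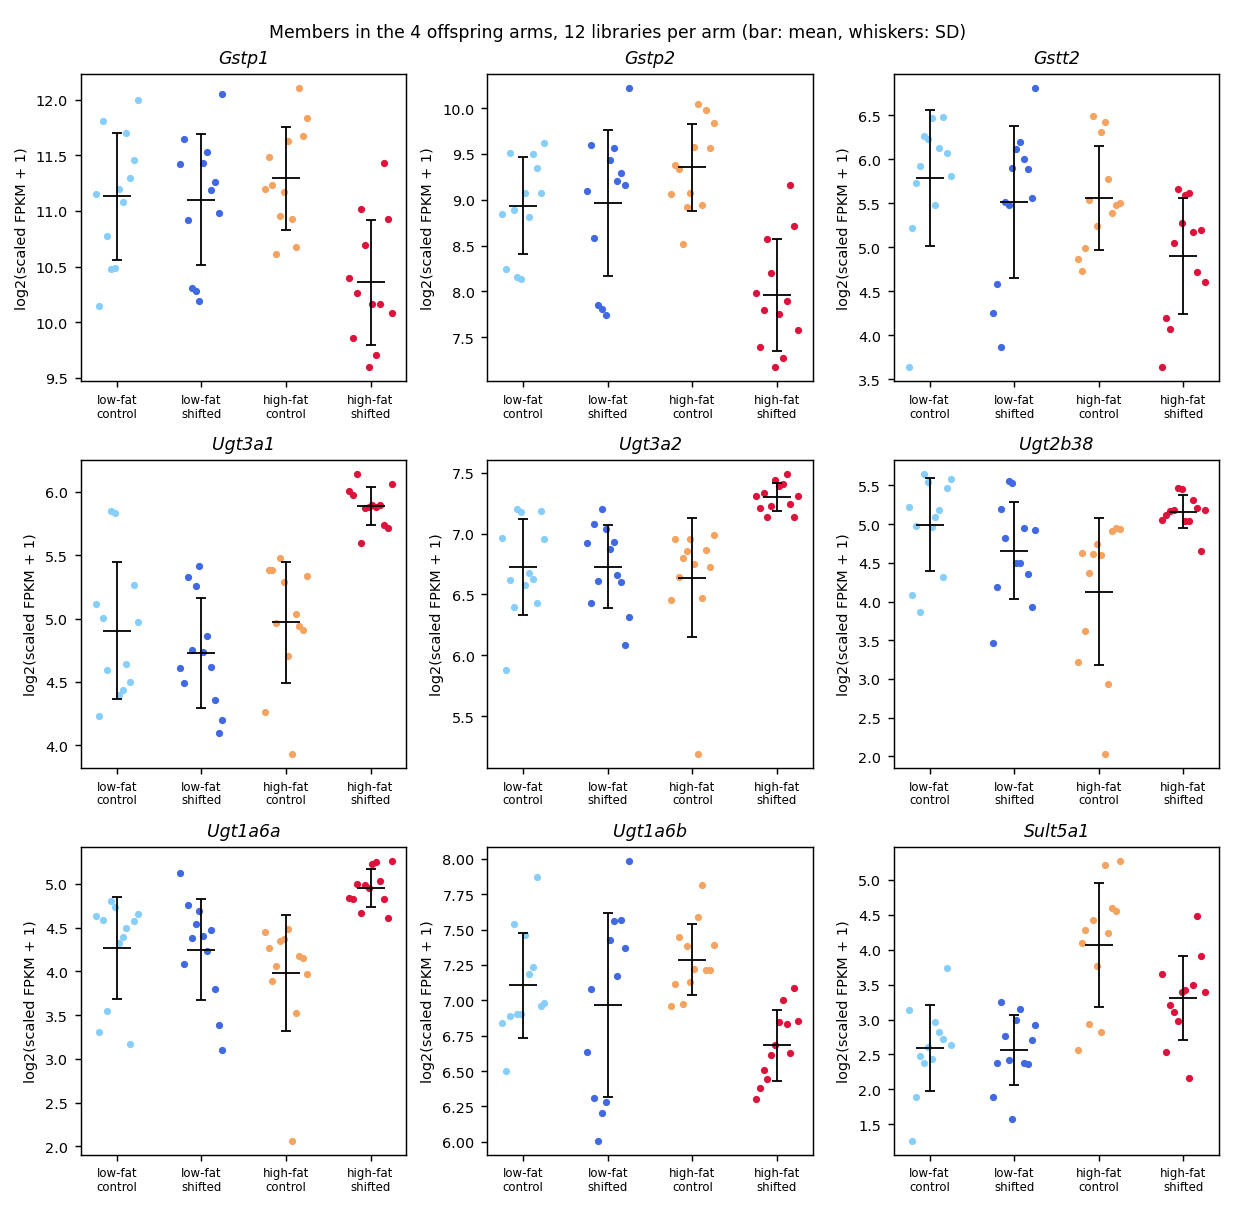
Level of 9 members in the 4 offspring arms on a log2(FPKM + 1) scale, with 1 point per library, a bar at the mean and whiskers of 1 SD (12 libraries per arm). The high-fat shifted arm has the lowest mean for Gstp1 and Gstp2 and the highest for Ugt3a1, Ugt3a2 and Ugt1a6a, and Sult5a1 has its highest mean in the high-fat control arm.

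Other quantities moved with this comparison. Over all genes, the change was related to transcript length (Spearman rho 0.44) and GC content (-0.31), and members that rose had a median transcript length of 2217.5 bases, against 1370 for those that fell. With smooth GC and length trends removed 19 members passed, 13 of them higher, beside 43.2% of all genes. Without the 5 offspring libraries that stood apart 22 members passed, 11 of them higher, beside 59.3% of all genes. Of the hepatocyte markers 2 of 5 fell (Apoa1 by -0.84 and Ttr by -0.53), with sums of 42392 to 68745 FPKM in the control and 32534 to 52499 in the shifted arm, and 2 of 4 cholangiocyte and 3 of 5 endothelial markers fell (sums 2.14 to 8.23 against 1.71 to 3.75, and 33.8 to 57.1 against 24.05 to 49.997 FPKM). Their part in the result was not tested.

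Genes listed for cofactor supply and removal were counted in the same comparison, where 48.2% of all genes tested passed (26.3% higher and 21.9% lower). A link of these genes to the enzymes was not tested. Of 6 genes listed for glucuronide 3 rose: the nucleotide sugar transporter Slc35d1 (1.02), Ugdh (0.36), which makes UDP-glucuronate, and Slc35a3 (0.96). Slc35a3 carries UDP-N-acetylglucosamine, so its rise is not one of UDP-glucuronate supply. Of 9 for sulfate, 5 rose and 2 fell, with the sulfate transporter Slc26a1 at 1.14 and the phosphatases Impad1 and Bpnt1, which remove the spent sulfate donor, at 1.33 and 0.77. Of 6 for glutathione, Gclc, the rate-limiting enzyme of its synthesis, rose by 0.52 and Gsr by 0.18, and Gss and Ggct fell by 0.30 and 0.36 on the log2 scale. Among regulators, 1 of 6 genes of the Nrf2 list (Txnrd1, 0.49) and none of the 4 tested of the PXR and CAR list passed. Cyp1a2, a target of the aryl hydrocarbon receptor, fell by 0.93 on the log2 scale. It is 1 gene of a longer list for that receptor (Ahr, Arnt, Cyp1a1, Cyp1a2 and Tiparp), so its fall says nothing of the list. Counts for this list and the other regulator lists are not given here.

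The high-fat diet was compared with the low-fat diet separately in offspring of each kind of mother. The comparisons share arms with those above. In offspring of control mothers 8 of 43 members passed, 2 higher and 6 lower, against 14.6% of all genes tested (6.73% higher and 7.84% lower). Sult5a1 rose from 1.41, 5.15 and 12.4 FPKM in the lowest, median and highest low-fat library to 4.94, 18.2 and 37.8 on the high-fat diet (1.48, limma adjusted p = 0.000296), with 12 of 12 high-fat libraries above the low-fat mean of their time. Gstk1, a mitochondrial and peroxisomal transferase, rose from 149 ± 24.8 to 202 ± 57.3 FPKM (SD, n = 12 each; limma adjusted p = 0.0168, and 0.0746 with values as deposited). Those that fell were Ugt1a9 (-1.54), Ugt1a5 (-1.04), Ugt2b38 (-0.86), Gstm4 (-0.51), Ugt1a2 (-0.50) and Ugt2b35 (-0.40), 5 of 16 glucuronide members among them. Ugt1a9 went from 4.83, 11.5 and 21.4 FPKM to 1.67e-05, 3.91 and 9.64. Ugt2b35 (adjusted p = 0.0455) and Gstm4 (0.0266) lost the call in 16 and 5 of 24 fits that left out 1 library, and with values as deposited 1 of 9 passing members was higher. A fit of only these arms called 4.

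In offspring of shifted mothers 17 of 43 members passed, 9 higher and 8 lower, against 23.2% of all genes tested (11.5% higher and 11.7% lower). Ugt3a1 rose from 16.1, 24.6 and 41.7 FPKM to 47.3, 58.2 and 69.6 without overlap (1.16, limma adjusted p = 1.06e-06), and Ugt3a2 (0.57) and Ugt1a6a (0.71) also rose. Gstp2 fell from 214, 581 and 1196 FPKM to 143, 230 and 571, with 10 of 12 high-fat libraries below the low-fat mean of their time (-1.005, limma adjusted p = 0.000110), and Gstp1 fell by 0.74 on the log2 scale. Of the mu class, Gstm1 (-0.44), Gstm2 (-0.49), Gstm5 (-0.64) and Gstm6 (-0.56) were lower, and Gstm6 went from 57.8, 96.4 and 118 FPKM to 45.9, 61.9 and 67.5. Gstm1, Gstm2 and Gstm5 did not pass with GC and length trends removed (limma adjusted p = 0.136, 0.194 and 0.0592). Gstk1 rose here as well (0.50, limma adjusted p = 0.00189), as did Gstz1 (0.28), Gstt3 (0.51), Ugt2a3 (0.41), Ugt2b36 (0.29) and Sult5a1 (0.75), while Gstt2 (-0.61) and Ugt1a6b (-0.28) fell. With values as deposited 10 of 15 passing members were higher. Of the hepatocyte markers 3 of 5 fell in this comparison (sums 40064 to 87985 FPKM on the low-fat and 32534 to 52499 on the high-fat diet), and their part was not tested.

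The test of the difference itself, the interaction of schedule and diet, was passed by 10 of 43 members, against 24.2% of all genes tested, so the members' share was near that of all genes. Of these, 7 were positive and 3 negative (13.9% and 10.3% of all genes tested), with 12 of 14 positive for values as deposited and 6 of 11 with upper quartile scaling. The negative ones were Gstp2 (-1.42, SE 0.25, limma adjusted p = 4e-04), Gstp1 and Ugt1a6b, and the positive ones were Ugt2b38, Ugt3a1, Ugt1a1, Ugt1a6a, Ugt2b35, Ugt3a2 and Gstt3. In these genes the difference between schedules was not the same on the 2 diets. For Ugt3a1 the means were 31.1 and 26.6 FPKM in low-fat and 31.8 and 58.5 in high-fat offspring of control and shifted mothers. For Ugt2b38 they were 33.2, 26.5, 19.5 and 35.1 FPKM in the same order, where the high-fat control arm was the lowest.

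Time of day was tested within each arm. In mothers and fetuses no member passed by limma: 0 of 47 in control mothers (4.28% of all genes tested passed, and 7 members had an unadjusted p under 0.05), 0 of 49 in shifted mothers (0.717%, 1 member), 0 of 36 in control fetuses (0%, 0 members) and 0 of 33 in shifted fetuses (0%, 1 member). The first of these by p was Ugt2b34 in control mothers, at 86.2 ± 2.41 FPKM at ZT0 and 124 ± 13.3 at ZT18 (SD, n = 3; limma adjusted p = 0.0818). Over all genes, an unadjusted limma p under 0.05 was reached by 1979 of 10052 in control and 878 of 10035 in shifted mothers. In control fetuses it was reached by 512 of 11762 genes, and in shifted fetuses by 600 of 11692.

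In low-fat offspring of control mothers 4 of 42 members changed over the day, against 14.2% of all genes tested: Sult1d1, Gstk1, Sult1b1 and Gstt3. Sult1d1, a sulfotransferase of catecholamines and eicosanoids (chromosome 5, 87554645 to 87569027, minus strand), was at 35.7, 26.7 and 30.8 FPKM at ZT0, 51.5, 41.7 and 39.7 at ZT6, 66.6, 96.8 and 71.6 at ZT12, and 76.2, 104 and 75.8 at ZT18. The values at ZT12 and ZT18 lay above all those at ZT0 and ZT6 (limma adjusted p = 0.00378), with a 2.68-fold difference between ZT18 and ZT0. Gstk1, Sult1b1 and Gstt3 (adjusted p = 0.0220, 0.0419 and 0.0420) lost the call in 4, 8 and 9 of 12 fits that left out 1 library.

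In low-fat offspring of shifted mothers 13 of 43 members changed over the day, against 23.2% of all genes tested. Gstt2 was at 18, 23.0 and 13.6 FPKM at ZT0, 44.6, 43.6 and 58.5 at ZT6, 68.2, 71.9 and 63.3 at ZT12, and 58.2, 46.0 and 111 at ZT18, with every ZT0 library below all others (limma adjusted p = 0.00465). Ugt1a6b was lowest at ZT6, with 63.4, 72.7 and 76.9 FPKM, and highest at ZT18, with 189, 164 and 253 (limma adjusted p = 0.00568). Ugt2b35 and Ugt1a9 peaked at ZT6. Ugt2b35 was there at 74.8, 68.2 and 59.4 FPKM, against 21.1, 15.8 and 23.8 at ZT18 (limma adjusted p = 0.0129). The others were Gstt1, Gstp1, Gstp2, Gstm4, Sult1a1, Sult1c2, Sult1d1, Ugt1a6a and Ugt2b37, with adjusted p between 0.00718 and 0.0245.

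In high-fat offspring of control mothers no member passed by limma (0 of 40, against 0.753% of all genes tested), and 11 had an unadjusted p under 0.05, against 1332 of all 10089 genes tested. In those of shifted mothers 6 of 42 passed, against 30.3% of all genes tested: Gstt2, Ugt2b37, Sult1c2, Ugt1a6b, Ugt1a1 and Gstm7. Gstt2 was at 11.5, 17.4 and 15.9 FPKM at ZT0 and at 47.1, 48.2 and 35.1 at ZT12 (limma adjusted p = 0.00238). Its mean was lowest at ZT0 in all 4 offspring arms, with 33.3 ± 20.5 FPKM (low-fat) and 28.2 ± 2.66 (high-fat) where mothers were controls, and 18.2 ± 4.70 (low-fat) and 14.9 ± 3.05 (high-fat) where they were shifted (SD, n = 3 each). Sult1d1 had its highest mean at ZT18 in all 4 offspring arms.

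**Figure D5:**
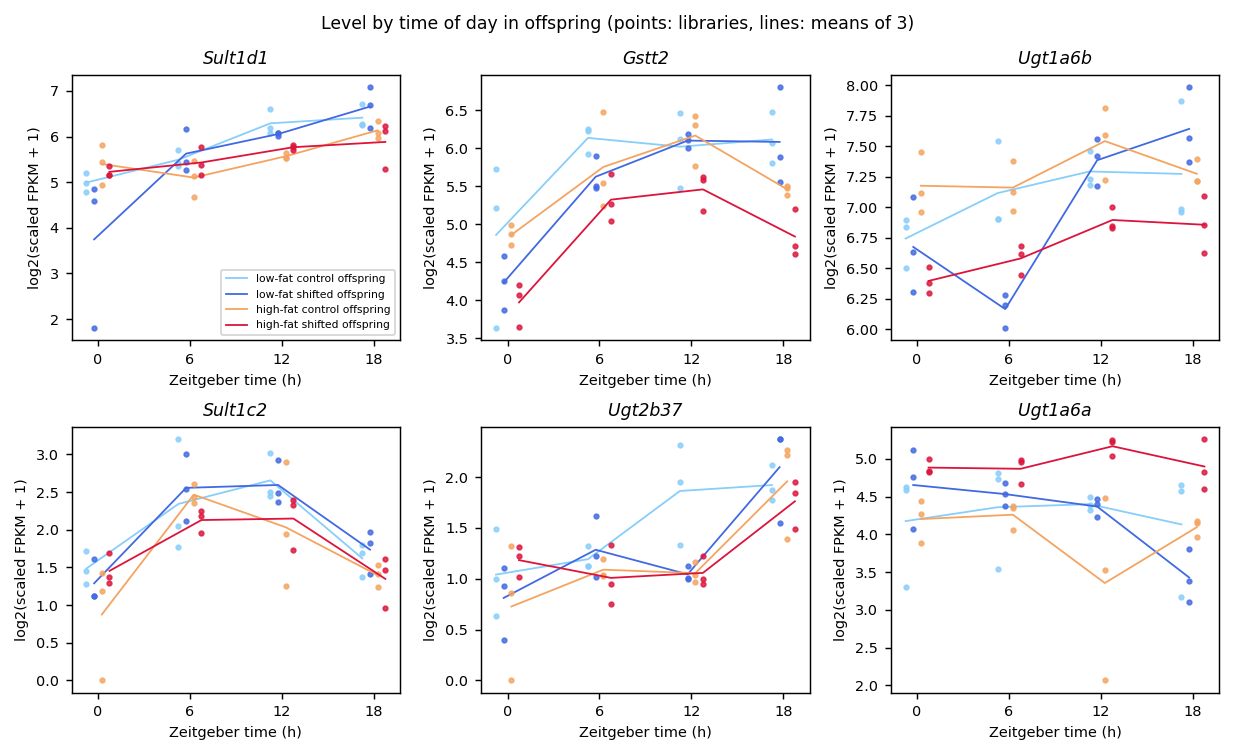
Level of 6 members at the 4 zeitgeber times (horizontal axis, hours) in the 4 offspring arms on a log2(FPKM + 1) scale, with 1 point per library and lines through the means of 3. Gstt2 is lowest at ZT0 in each arm, and Ugt1a6b falls at ZT6 in the low-fat shifted arm, where it was at 63.4 to 76.9 FPKM.

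A member that passed in one arm and not in another was not shown to differ between them. The interaction of time with schedule was passed by limma by no member in mothers (0 of 51, against 1.64% of all genes tested, with 2 at an unadjusted p under 0.05), in low-fat offspring (0 of 43, 0.0461%, 6) or in high-fat offspring (0 of 43, 0%, 1). The interaction of time with diet was passed by none in offspring of control mothers (0 of 43, 0.0277%, 5) or of shifted mothers (0 of 43, 0.157%, 7). The smallest adjusted p were 0.105 for Ugt1a6b between the low-fat arms and 0.115 for Sult1d1 between the diets in offspring of shifted mothers. Over all genes, an unadjusted limma p under 0.05 for time with schedule was reached by 1116 of 10351 in mothers. In offspring it was reached by 1732 (low-fat) and 803 (high-fat) of 10849 genes. For time with diet the counts were 1958 (control mothers) and 1652 (shifted mothers) of 10849.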

How the data were processed

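Liver poly(A) RNA of 96 libraries was measured with a stranded kit, per the labels' protocols. The authors deposited FPKM, which are relative to transcript length and library size, in 1 table per arm. The submitters' processing notes name TopHat2 2.1.1, Cufflinks 2.2.1 and mm10, and their annotation is not given in the sources used here. Symbols on several entries (280 symbols, 817 of 24883 entries) were left out. Without counts, depth and the precision of low values are unknown.

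Median-of-ratios factors (0.71 to 1.39) scaled the libraries within mothers, fetuses and offspring, and mothers and fetuses jointly (0.66 to 1.65) for the fetal comparison. Genes with at least 1 FPKM in at least 3 libraries entered limma 3.58.1 under R 4.3.3 as log2(FPKM + 1), with trended variances and a mean for each arm at each time. Levels are differences between arms averaged over time, with Benjamini-Hochberg adjustment over all genes and a threshold of 0.05. Time of day and its interactions used F tests with 3 degrees of freedom. The procedure was tested on simulated data. The members, gene lists and comparisons were chosen with earlier results of these data known. The named genes are at most 15 passing members of smallest p per comparison, or the 3 of smallest p where none passed. Members named beyond that complete a count or were chosen after their values were seen. Alternatives were a pseudocount of 0.1, no filter, values as deposited, upper quartile scaling, a replicate block, cosine terms, only the arms compared, leaving out each library and leaving out 5 libraries that stood apart. Removal of GC and length trends (longest GENCODE M21 transcript, splines with 4 degrees of freedom) was added after seeing the data. Annotation coordinates are from GENCODE M21 and promoter sequences from RefSeq.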

Additional observations from a re-analysis of the deposited data

Results flagged for a closer look

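The effect of the mother's schedule differed between the diets by the interaction test in 10 members, where 24.2% of all genes tested passed. The difference, as the change with schedule on the high-fat diet minus that on the low-fat diet, was -1.42 for Gstp2 (limma adjusted p = 4e-04), 1.09 for Ugt3a1 (0.000723), 1.36 for Ugt2b38 (0.00310), 0.75 for Ugt2b35 (0.00594), -0.90 for Gstp1 (0.00742), 1.0 for Ugt1a6a (0.00882), 0.66 for Ugt3a2 (0.0107), -0.47 for Ugt1a6b (0.0209), 1.01 for Ugt1a1 (0.0262) and 0.62 for Gstt3 (0.0458). The call of Gstp1 was lost with GC and length trends removed (adjusted p = 0.0904) and that of Ugt1a6b with values as deposited (0.117). Gstt3 lost its call in 29 of 48 fits that left out 1 library, where the adjusted p ran from 0.00711 to 0.0785. The other 9 kept their call in all 48 such fits, and all 10 kept it without the 5 libraries that stood apart.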

How the results depend on the processing

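Of 163 alternative counts of passing members, 154 were within 1.5 times the reported count. The others were 2 in mothers with upper quartile scaling, 2 in fetuses with the replicate block, 4 for diet in offspring of control mothers in a fit of only these arms, 1 for time of day in control mothers with GC and length trends removed, 2 without a filter and 9 with cosine terms in low-fat control offspring, 20 with values as deposited in low-fat shifted offspring, 3 without the 5 libraries in high-fat control offspring, and 10 with cosine terms in high-fat shifted offspring. The cause was not tested. Among 1038 alternatives for 138 results of single members, 989 gave the same call, 45 lost it, 4 gained it and none reversed.

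Leaving out each library gave 49 to 50 and 50 to 51 passing members for the fetal comparisons (control and shifted schedule), 1 to 3 in mothers, 0 to 1 in fetuses, 0 in low-fat and 18 to 20 in high-fat offspring for the schedule, 6 to 11 and 13 to 20 for diet (control and shifted mothers), and 9 to 14 for the interaction. For time of day it gave 0 to 4 in control and 0 in shifted mothers, 0 in fetuses, 1 to 10 in low-fat control, 10 to 17 in low-fat shifted, 0 to 3 in high-fat control and 3 to 16 in high-fat shifted offspring. For time by schedule it gave 0 in mothers and high-fat and 0 to 2 in low-fat offspring, and for time by diet 0 to 1 and 0 to 4.

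Equal replicate numbers gave no sign of pairing at the median: the median correlation of same-numbered libraries was between -0.08 and 0.06. At most 3 of 12 pairs per comparison were over 0.1. Between the fetal arms single pairs ran from -0.67 to 0.79. The labels give no pairing, so these correlations cannot show whether libraries were related. The replicate block moved no other count by over 1.5 times. Members near 1 FPKM are limited by the unknown depth.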
